A study of Ceratopteris richardii with 9 samples.

Results

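CriWUL was followed as the only member of the WUS clade among the WOX transcripts named for Ceratopteris richardii, a homosporous fern. It is the row numbered transcript86941, taken by its number alone, 1 of 28952 transcripts in the table. The plants were young sporophytes of the Hn-n strain, with no treatment or mutation in their labels, collected 45 days after fertilization from upright plates with sucrose. Each plant was cut into the root tip (RT), taken below the visible vascular strands, the root without its tip (DR, differentiated root) and the shoot of leaves and stem freed of roots (SH). There were 3 libraries per segment, described as independent biological replicates and each made from the pooled segments of many roots or several plants, so values are averages over plants of 1 strain. The transcripts come from a de novo assembly and carry numbers in place of gene names and chromosome positions. No list of root or shoot markers was matched to them to check the segments.

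WOX proteins are transcription factors with a homeodomain of the WUSCHEL type, found across land plants and known for keeping stem cells undifferentiated in meristems. In Arabidopsis, WUS acts in the organizing centre of the shoot meristem and WOX5 in the quiescent centre of the root meristem, and both belong to the WUS clade. The WOX13 clade is the oldest of the family, and the WOX9 clade holds genes that act in embryos and in new roots of flowering plants. A fern root grows from a single apical cell and has no quiescent centre of the angiosperm kind, which is why a WUS clade transcript was compared between the root tip and the rest of the plant.

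Reads of CriWUL were concentrated in the RT. The 3 RT libraries held 94, 65 and 79 counts in replicates 1 to 3. The DR libraries held 5, 11 and 5 counts, and the SH libraries 1, 5 and 3. CriWUL was thus read in every library, and 238 of its 268 counts came from the RT. The libraries had total counts between 20065742 and 27376654, so a few counts per library is close to the limit of what was measured in the DR and SH. All 9 deposited CriWUL values were whole numbers, whereas 17.1% to 19.1% of all values per library were not whole. Counts are estimated by dividing reads among similar transcripts.

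Levels were set on the scale of CPM, the count relative to the library size after scaling with TMM factors, which ranged from 0.773 to 1.248. RT replicates 1 to 3 stood at 3.75, 2.54 and 2.94 CPM. The DR libraries were at 0.184, 0.406 and 0.202 CPM. Those of the SH were at 0.0511, 0.215 and 0.129 CPM. The lowest RT library was 6.25-fold above the highest of the 6 other libraries, so the RT did not overlap with either segment, while the DR and SH libraries overlapped with each other. The same separation of the 3 RT libraries above the 6 others was found for 20.6% of all transcripts.

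**Figure D1:**
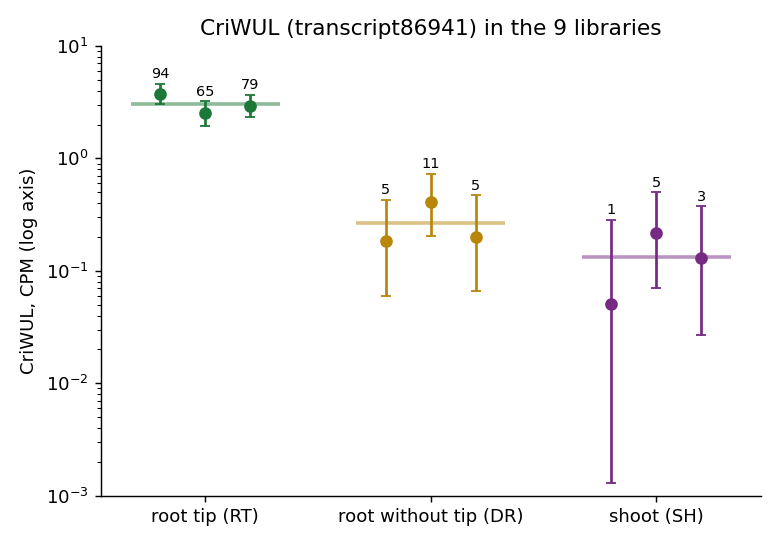
CriWUL in CPM on a log axis, with 3 libraries per segment as points in replicate order, bars for the exact 95% Poisson interval of the count (counting error only), horizontal lines for the segment means and the count above each point. The 3 RT libraries lie between 2.54 and 3.75 CPM, above all DR and SH libraries, the highest of which is at 0.406 CPM.

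Counting error alone leaves a wide range for the low libraries. The count of 1 in SH replicate 1 has an exact 95% Poisson interval that reaches 0.285 CPM, and the count of 11 in DR replicate 2 one from 0.203 to 0.727 CPM. In the RT the lowest library has an interval from 1.96 to 3.23 CPM. No RT interval touched an interval of the other segments. The coefficient of variation between RT libraries was 20.2%, where counting alone would give about 11.2%. Over the 2830 transcripts with a mean RT level within a factor of 1.5 of CriWUL, this coefficient had a median of 27.1% and quartiles of 16.7% and 42.4%, so the spread of CriWUL in the RT was in the usual range for its level.

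The order of the levels was RT, DR, SH. The RT exceeded the DR 11.4-fold, with a 95% interval from 5.67 to 23.0. On the log2 scale this is 3.51 with a standard error of 0.45 (edgeR quasi-likelihood fit over all transcripts, adjusted p = 0.000126). The RT exceeded the SH 22.0-fold, with an interval from 10.2 to 47.8, or 4.46 with a standard error of 0.50 on the log2 scale (same edgeR fit, adjusted p = 5.15e-05). Both differences passed the study's thresholds, a log2 value of 2 and an adjusted p of 0.05, as did 8.62% of all transcripts against the DR, 9.32% against the SH and 3.20% against both. In such bulk tissue, fewer cells that carry the transcript and less RNA per cell cannot be told apart.

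The neighbours at the low end of the order were not separated. On the log2 scale the DR was 0.95 above the SH with a standard error of 0.55 and a 95% interval from -0.29 to 2.19, which was not past 0.05 (edgeR fit, adjusted p = 0.168). In linear terms that is 1.93-fold, with an interval from 0.817 to 4.56, which includes equal levels. The DR had 21 pooled counts and the SH 9, a library-scaled ratio of 1.95 with an exact 95% interval from 0.856 to 4.84 for counting error only. The difference was 0.50 without DR replicate 2 and 1.47 without SH replicate 2, and passed an adjusted p of 0.05 in no setting tried.

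**Figure D2:**
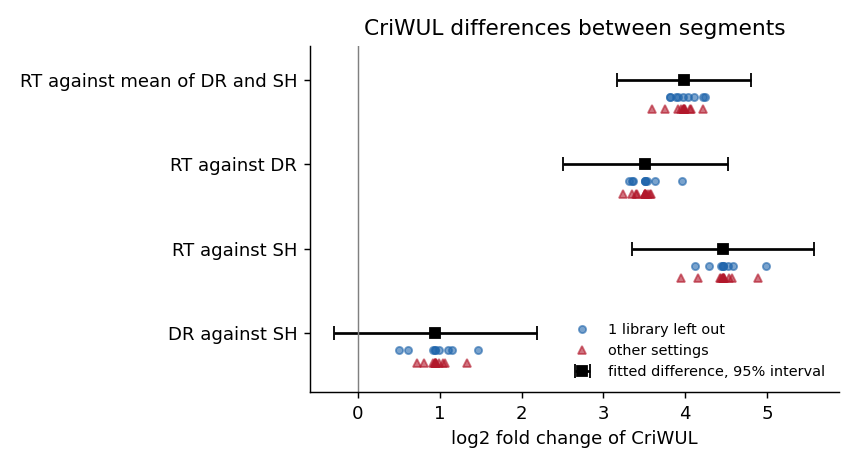
Log2 fold changes of CriWUL between segments, with squares and bars for the fitted differences and their 95% intervals from edgeR, circles for fits without 1 library and triangles for other settings. All point values that involve the RT lie above 3, while the interval of RT against DR reaches down to 2.50. The interval of DR against SH, from -0.29 to 2.19, includes 0.

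Against the mean of the DR and SH, the log2 fold change was 3.99 with a 95% interval from 3.17 to 4.81 (edgeR fit, adjusted p = 1.51e-05). Of all transcripts, 7.06% were higher in the RT past both thresholds in this contrast. The scaling between libraries moved the whole table more than it moved CriWUL within it. With library size alone the median of all transcripts shifted by 0.22 in this contrast, and by 0.42 against the SH alone, and CriWUL moved with it to 4.22 and 4.88. Relative to the median of all transcripts, CriWUL stood 3.93 to 3.94 higher in the RT contrast under each of the 4 scalings, and 4.35 higher against the SH.

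CriWUL was also compared with transcripts of like abundance, because shares from few counts are imprecise. Abundance was the mean of the 3 segment means, 1.16 CPM for CriWUL, and 2977 transcripts lay within a factor of 1.5 of it, CriWUL included. These are transcripts with like counts, not like numbers of molecules, since counts were not divided by transcript length. Specificity was the share of the RT in the sum of the 3 segment means. For CriWUL the RT took 88.6%, the DR 7.60% and the SH 3.79%. The median RT share in the window was 31.0%, the 90th percentile 60.6% and the 99th percentile 85.5%. CriWUL was in place 21 of 2977, with 20 transcripts, or 0.672%, above it. Of all transcripts, 158, or 0.546%, had a higher RT share.

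**Figure D3:**
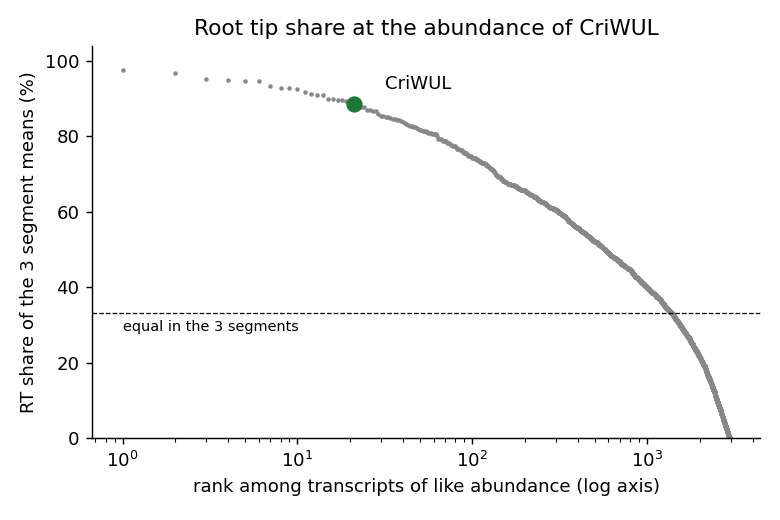
Share of the RT in the sum of the 3 segment means, in percent, against the rank of the share (log axis) for the 2977 transcripts within a factor of 1.5 of the abundance of CriWUL, with CriWUL as the large point. CriWUL is at 88.6% in place 21, and the dashed line marks equal levels in the 3 segments.

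All 20 transcripts above CriWUL passed both thresholds for the RT contrast and had their 3 RT libraries above the 6 others, as did 9.07% and 13.7% of the window, respectively. They were picked by a high RT share, so this describes them and tests nothing. None of them carries a name here. Just above CriWUL were transcript70572 at an RT share of 89.2%, transcript53239 at 89.5% and transcript42191 at 89.6%. Just below were transcript126408 at 88.3%, transcript48979 at 87.9% and transcript61391 at 87.7%. The RT libraries of CriWUL spanned 2.54 to 3.75 CPM, while transcript53239 ranged from 1.249 to 3.59 CPM over the RT libraries and transcript126408 from 0.966 to 2.88 CPM. These places are closer together than the replicates allow to be told apart, as the RT share of CriWUL itself ranged from 87.4% to 90.5% with single libraries left out or other scaling. In a narrower window of 1583 transcripts CriWUL was in place 10, and within a factor of 2 it was in place 42 of 5215. Ranked by the lower 95% bound of the fitted fold change, which lowers transcripts with noisy replicates, 28 of the window were above it, and ranked by the fitted fold change itself, 35 were. Shares as high as that of CriWUL were more frequent for the other segments at this abundance, where 111 transcripts had a higher DR share and 88 a higher SH share.

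In a simple count of detection, at least 1 CPM in 2 of 3 libraries, CriWUL was found in the RT only. So were 2.91% of all transcripts, and 467 of the 2977 in the window of like abundance. Its counts in the other segments, 1 to 11 per library, lie below this limit and are not 0.

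The 5 other WOX transcripts gave different patterns. The text of the study pairs numbers with names for CriWUL, CriWOXA and CriWOXB, and the names of the WOX13 clade transcripts rest on labels in its pictures. Against the mean of the DR and SH, 4 of 5 were higher in the RT at an adjusted p of 0.05, 0 were lower and 1 was not past it (edgeR fit), against 30.3% higher and 27.6% lower of all transcripts. Their median log2 fold change was 0.95, where the median of all transcripts was 0.05. They were named on these same libraries, so this is not independent evidence of a direction. The 4 kept their sign under each scaling, with 3 of 5 past 0.05 under RLE size factors. None reached the fold change or the RT share of CriWUL.

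CriWOXA (transcript45206), of the WOX9 clade, had RT libraries at 1.48, 4.10 and 6.95 CPM in replicates 1 to 3. Its DR libraries were at 0.147, 0.554 and 0.524 CPM, and its SH libraries at 1.58, 2.71 and 2.02 CPM. The RT and SH libraries of CriWOXA overlapped, unlike those of CriWUL. Its RT excess over the DR was 3.34 on the log2 scale (edgeR fit, adjusted p = 0.0013), beside 3.51 for CriWUL. Over the SH it was 0.99, not past 0.05 (edgeR fit, adjusted p = 0.153), beside 4.46 for CriWUL. CriWOXB (transcript86378), the other WOX9 clade transcript, was highest in the DR, with 84.6% of the sum of its segment means there and 12.5% in the RT.

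Of the WOX13 clade, transcript39955 had an RT share of 64.7%, transcript134494 of 48.8% and transcript140100 of 40.9%. The RT libraries of transcript39955 stood at 1.28, 1.44 and 2.38 CPM, and its other libraries between 0.0807 and 0.716 CPM. It was the only other WOX transcript whose RT libraries did not overlap with the rest.

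Ratios of counts within a library need no scaling between libraries, and their differences between segments need no transcript length. The log2 ratio of CriWUL to each other WOX transcript, with 0.5 added to each count, was compared between the 3 RT and the 6 other libraries by exact permutation tests, two-sided, adjusted over the 5 ratios. Relative to CriWOXB, CriWUL was 4.40 higher in the RT on the log2 scale (p = 0.0238, adjusted p = 0.0397, exact permutation test). Taken by segment, this was 6.31 over the DR, where CriWOXB was highest, and 2.49 over the SH. Relative to transcript140100 the difference was 3.54 and relative to transcript134494 it was 3.11, both with the same exact p and adjusted p. The p of 0.0238 is the smallest that 3 against 6 libraries allow, and all 3 RT libraries were above the 6 others in each of these ratios. The ratios were chosen with earlier results of these data known, so their p are not independent evidence of an RT excess.

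For the other 2 ratios the RT libraries overlapped with those of the DR, but not with those of the SH. Relative to transcript39955, CriWUL was 1.99 higher in the RT (exact permutation p = 0.0714, adjusted p = 0.0893). Taken by segment, this was 1.01 over the DR and 2.97 over the SH. Relative to CriWOXA the difference between the RT and all other libraries was also 1.99 (exact permutation p = 0.19, adjusted p = 0.19). The ratio to CriWOXA averaged -0.20 ± 1.35 (SD, n = 3) over RT libraries, -0.48 ± 0.79 over those of the DR and -3.89 ± 0.45 over those of the SH. The RT thus differed from the DR by 0.28, less than the spread between replicates, and from the SH by 3.70, with no overlap. The latter contrast was not tested alone, because 3 libraries against 3 cannot go below p = 0.1 in an exact permutation test.

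**Figure D4:**
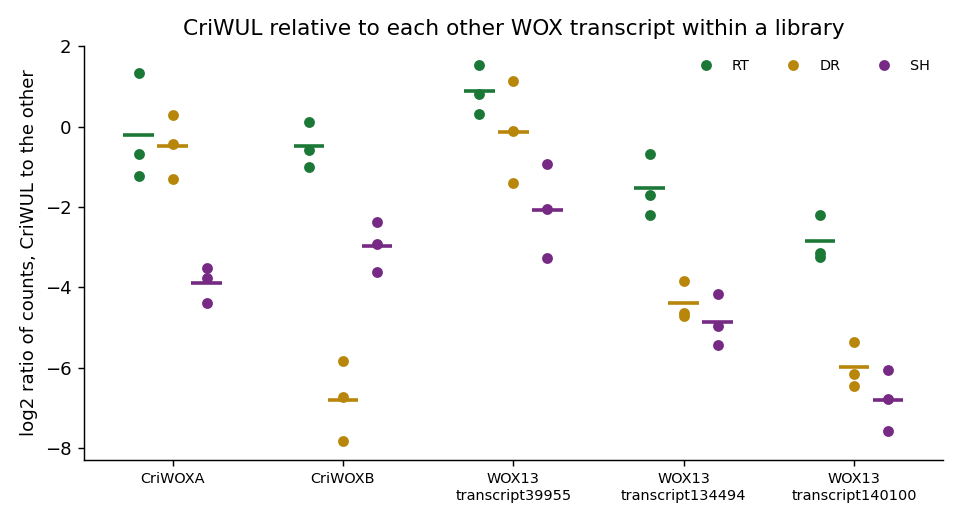
Log2 ratio of the CriWUL count to the count of each other WOX transcript in the same library, with 0.5 added to each count, as points for the 3 libraries of the RT, DR and SH and lines for their means. The RT points lie above all others for CriWOXB, transcript134494 and transcript140100, and overlap with the DR points for CriWOXA and transcript39955.

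A list of 11 other transcripts, called root meristem transcripts here, was set beside CriWUL. The study treated these genes in its account of how the cortex and endodermis are specified. Their names too rest on labels in its pictures and not on its text, and other D-type cyclins that it drew are not used here. Those labels do not tell RBR1 from RBR2, so which transcript bears which name is less certain. The study describes RBR2 as raised in the RT. Here transcript83572, called RBR2, had an RT share of 64.0%, and transcript30597, called RBR1, of 35.8%. The list held RBR1 and RBR2, retinoblastoma-related proteins that restrain entry into DNA synthesis, the GRAS transcription factors SCR, SHR and SCL28, of which SCR and SHR pattern the ground tissue of Arabidopsis roots, and 6 D-type cyclins (CYCD), which promote entry into the cell cycle. Against the mean of the DR and SH, 9 of 11 were higher in the RT at an adjusted p of 0.05 and 0 were lower (edgeR fit), against 30.3% higher and 27.6% lower of all transcripts. Past both thresholds were 4 of 11, against 7.06% of all transcripts. Their median log2 fold change was 1.597, where that of all transcripts was 0.05. The study had filtered the transcripts it drew by adjusted p in these same libraries, so these counts are not independent evidence. With library size alone 11 of 11 were higher, and with RLE size factors 8.

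Each other segment was then taken alone. Against the DR, 10 of 11 were higher in the RT at an adjusted p of 0.05 (edgeR fit), with a median log2 fold change of 2.90. Against the SH 6 of 11 were, with a median of 0.65. CriWUL stood at 3.51 and 4.46 in these contrasts, and 29.9% of all transcripts were higher in the RT in each. The medians of all transcripts were 0.07 and 0.11. With library size alone 9 of 11 were higher against the SH, with a median of 1.10 where that of all transcripts was 0.54, and the sign turned for RBR1. Both medians share the RT libraries with each other and with CriWUL. The SH share was below the 3.79% of CriWUL for the CYCD transcript42446, at 0.150%. For the 10 others it was higher, from 14.6% for the CYCD transcript68372 to 42.4% for the CYCD transcript68371. For the DR against the SH, the list had a median log2 fold change of -1.90, beside 0.95 for CriWUL. That of all transcripts was -0.08. Most of the list was thus higher in the SH than in the DR, unlike the order of CriWUL.

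Only the CYCD transcript42446 of the 16 named transcripts other than CriWUL had a higher RT share, 93.5%. Its counts were 168, 291 and 234 in RT replicates 1 to 3. They were 29, 14 and 6 in the DR libraries, and those of the SH were at 0, 1 and 0. Its log2 CPM correlated with that of CriWUL at Pearson's r = 0.95 over the 9 libraries, in place 435 of 26261 transcripts. The r of CriWOXA was 0.56 and that of CriWOXB -0.03. Such r are given as descriptions, because the 9 points share library depth and fall into 3 segments.

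**Figure D5:**
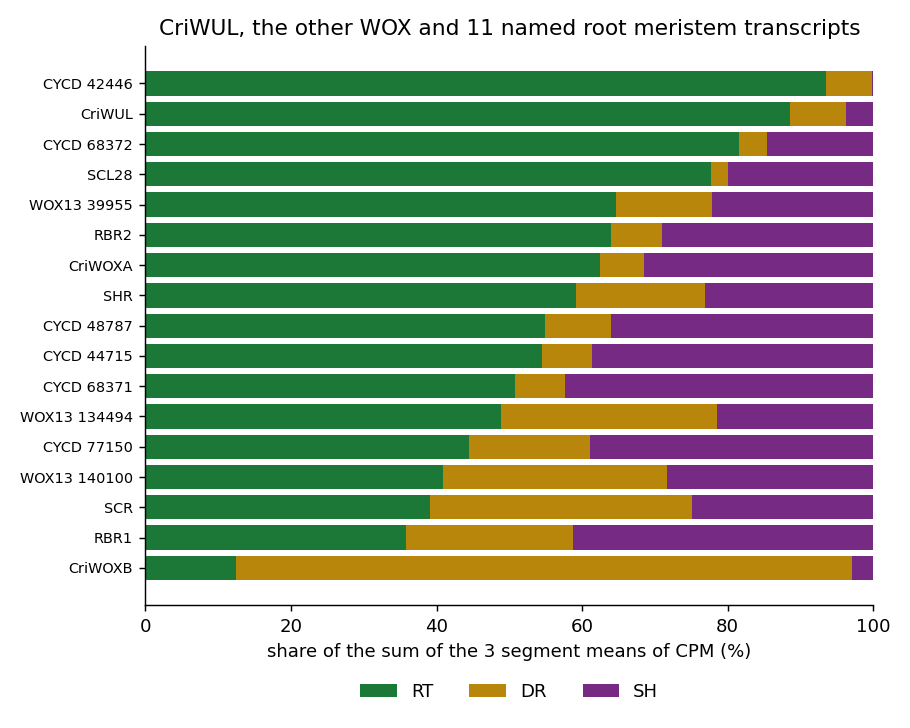
Share of the RT, DR and SH in the sum of the 3 segment means of CPM, in percent, for CriWUL, the 5 other WOX transcripts and 11 named root meristem transcripts, ordered by the RT share. CriWUL, at 88.6% in the RT, follows only the CYCD transcript42446, at 93.5%, and has an SH share of 3.79%.

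The transcripts with the pattern most like that of CriWUL were sought by Pearson's r of log2(CPM + 0.5) over the 9 libraries, among 26261 transcripts with a mean of at least 0.5 CPM. The 5 highest were transcript108264, transcript44805, transcript34136, transcript43577 and transcript18319, with r of 0.990, 0.989, 0.989, 0.988 and 0.987. In all, 30 transcripts reached 0.98 and 474 reached 0.95. The likeness is of shape and not of size. transcript108264 had RT libraries at 8.43, 6.56 and 7.43 CPM, DR libraries from 4.03 to 4.14 and SH libraries from 3.22 to 3.78, an RT share of 49.5%. transcript43577 had RT libraries at 34.0, 18.2 and 20.6 CPM, DR libraries from 0.807 to 1.47 and SH libraries from 0.774 to 0.902, an RT share of 92.3%. RT replicate 1 was the highest library and RT replicate 2 the lowest of the RT in both, as in CriWUL. None of these 5 has a name here. Of them, 2 were still among the 50 highest without RT replicate 1.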

How the data were processed

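RNA-seq libraries came from 3 segments of Ceratopteris sporophytes. The authors trimmed reads with Trimmomatic 0.32, assembled all libraries with Trinity, clustered transcripts with CD-HIT and Compacta, ran kallisto 0.44.0 per library and filtered low counts with edgeR. Deposited values are estimated counts of reads for each transcript, not divided by library size or length, although its name says TPM. Close copies can share reads in such counts.

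Counts were rounded and scaled with TMM factors, and 1 coefficient per segment was fitted over all 9 libraries by quasi-likelihood in edgeR (edgeR 4.0.16, limma 3.58.1, DESeq2 1.42.0, R 4.3.3), with Benjamini-Hochberg adjustment over all 28952 transcripts and a prior count of 0.125. Standard errors are the fold change over the square root of F. The fit was tested on simulated data. Columns were matched to samples by title. Replicate numbers were not used to pair libraries.

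CriWUL, the lists and the tests were chosen with earlier results of these data known. Besides the lists, the text names the 5 transcripts of highest r and the 3 on each side of CriWUL in the rank. Alternatives were other scaling, filters, prior counts, tools, windows and measures, and each library left out. CriWUL's sequence is not analysed here.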

Additional observations from a re-analysis of the deposited data

How the results depend on the processing

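The RT excess of CriWUL kept its direction and its side of the threshold in all 21 alternatives for each of the 3 RT contrasts, the study's limma voom included. Against the mean of the DR and SH it lay between 3.59, from limma with a trend, and 4.25, without SH replicate 2. Without single libraries it was 3.82 to 4.25 in that contrast, 3.31 to 3.96 against the DR and 4.12 to 4.98 against the SH. DR against SH stayed short of 0.05, with adjusted p from 0.0753 to 0.54 over all settings. With the replicate number as a block, the RT excess was 4.06 against the mean of the DR and SH (adjusted p = 0.000179 from edgeR), and the block moved no call of the 4 CriWUL contrasts. The ratios were not tested within replicate numbers. With the block, 2001 transcripts were higher in the RT past both thresholds, against 2045 without it. The numbers name no shared batch, and deviations from the segment means correlated by -0.39 to 0.11 between libraries of the same number, over 0.1 in 1 of 9 pairs, so libraries were not treated as paired. The share of the window above CriWUL was 0.47% to 0.883% without single libraries and 1.18% when ranked by the fitted fold change, which depends on the prior count for transcripts near 0. Of the 5 transcripts most like CriWUL, 2 were among the 50 highest by Spearman's rho, and 2 to 5 without single libraries, with 2 without RT replicate 1. The cause was not tested. The ratios within libraries kept their direction without single libraries, at 1.22 to 2.51 for CriWOXA, 3.81 to 4.90 for CriWOXB, 1.56 to 2.44 for transcript39955, 2.69 to 3.44 for transcript134494 and 3.21 to 3.75 for transcript140100. With 3 RT libraries against 5 others the smallest exact permutation p is 0.0357, and after adjustment over the 5 ratios the calls for CriWOXB, transcript134494 and transcript140100 were at up to 0.0595 by construction of the smaller design. The ratio to transcript39955 passed 0.05 without DR replicate 3 (adjusted p = 0.0446, exact permutation test). It did so without no other DR or SH library. With 2 RT libraries no test was made. At 1 to 11 counts per library, depth limits any statement on CriWUL in the DR and SH.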

Other observations

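RT replicate 1 had the most CriWUL counts, 94, and the fewest CriWOXA counts, 37, while RT replicate 2 had 65 and 105 and RT replicate 3 had 79 and 187. CPM in RT replicate 1 relative to the mean of RT replicates 2 and 3 was 1.37 for CriWUL and 0.268 for CriWOXA. It was 0.555 to 0.686 for the WOX13 clade transcripts, 0.505 for SHR, 0.541 for SCL28 and 0.669 for the CYCD transcript42446. It was above 1 for CriWOXB at 1.36, SCR at 1.31, RBR1 at 1.254, RBR2 at 1.05 and the CYCD transcript48787 at 2.25. Of 24973 transcripts with a mean of at least 0.5 CPM in the RT, 33.7% were highest in RT replicate 1, as were 0 of the 5 other WOX transcripts and 3 of the 11 other named ones. With 3 libraries no relation between these transcripts was tested.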
